A study of Rattus norvegicus with 52 samples.

Results

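The probe sets of 5 genes of the growth hormone and insulin-like growth factor axis were followed in rat liver: Ghr, Igf1, Igfals, Igfbp3 and Igfbp1. They were chosen by the accession that begins their ID, with every suffix kept, which gave 8 of the 8740 non-control probe sets on the array. Ghr, Igf1 and Igfals each had a pair of probe sets, with the endings _at and _g_at, and Igfbp3 and Igfbp1 had a single probe set each. RNA of F344 rats that had received clofibric acid (CA) was set beside RNA of untreated rats on 52 arrays. CA is a fibrate, a class of lipid-lowering drugs that act through the nuclear receptor PPARα. The labels give the CA doses as 0.29% and 0.54%. No source used here gives the route and length of treatment or the sex and age of the rats. The title names a comparison of whole liver with liver from laser capture microdissection (LCM), where a laser frees selected areas of a section for RNA extraction. There were 2 arrays of microdissected control liver and 1 for each CA dose. LCM-reference-time sections and dehydrated sections had 1 array for each of the 3 doses. Stained sections had 8 arrays of controls, 7 of 0.29% CA and 5 of 0.54% CA, and entire sections had 8, 8 and 6 in the same order. The labels do not say that the arrays of a group came from separate rats. The p-values below therefore measure the spread between these samples, which may be partly technical. It is also not stated whether a stained array and an entire array can share an animal. The main tests between these preparations took their arrays as independent.

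Growth hormone from the pituitary binds its receptor, GHR, on hepatocytes and drives transcription of Igf1 through JAK2 and STAT5. The liver is the main source of circulating insulin-like growth factor 1 (IGF-1). In plasma most IGF-1 is held in a ternary complex with IGF binding protein 3 (IGFBP-3) and the acid-labile subunit, the product of the growth hormone dependent gene Igfals, and this complex keeps the growth factor in the circulation. IGFBP-1 is a binding protein from the liver whose gene is held down by insulin and raised in fasting, and it controls the free fraction of IGF-1 from hour to hour. In liver, Igf1, Igfals and Ghr are known mainly as hepatocyte transcripts, whereas Igfbp3 is known mainly from the non-parenchymal cells. In RNA from whole or cut tissue, fewer cells of a type and less RNA per cell cannot be told apart.

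The 250 bases before the transcription start of Igfbp1, Igf1 and Igfals are shown. These genes held changes described below, and insulin or growth hormone is known to regulate each of them. Igfbp3 held changes as well, and its window is described without its sequence. The sequences are from RefSeq (rat assembly GRCr8), 5′ to 3′ on the strand of the gene, and capitals mark a match to a searched motif.
Igfbp1, chr14:86261027-86261276, plus strand: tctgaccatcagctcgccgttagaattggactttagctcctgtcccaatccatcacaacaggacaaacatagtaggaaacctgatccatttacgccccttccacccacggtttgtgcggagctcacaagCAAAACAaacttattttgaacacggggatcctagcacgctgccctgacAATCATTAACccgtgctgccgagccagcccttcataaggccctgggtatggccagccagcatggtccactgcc
Igf1, chr7:24172282-24172531, plus strand: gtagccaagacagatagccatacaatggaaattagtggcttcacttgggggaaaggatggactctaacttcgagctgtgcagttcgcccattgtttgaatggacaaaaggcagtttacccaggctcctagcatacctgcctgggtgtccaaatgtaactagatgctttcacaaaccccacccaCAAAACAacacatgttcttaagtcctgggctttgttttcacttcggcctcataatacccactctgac
Igfals, chr10:14403600-14403849, plus strand: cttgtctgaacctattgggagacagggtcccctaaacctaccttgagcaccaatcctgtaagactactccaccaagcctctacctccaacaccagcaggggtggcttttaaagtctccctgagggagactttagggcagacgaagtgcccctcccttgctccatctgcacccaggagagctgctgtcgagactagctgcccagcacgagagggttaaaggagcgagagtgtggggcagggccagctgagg
The motifs were searched on both strands of each window. They were CAAAACA (the core of the insulin response element bound by FOXO proteins), GTAAACA (a FOXO motif), GTTAAT followed by any base and ATT (HNF1), TTCNNNGAA (STAT5) and the direct repeat bound by PPAR with RXR (AGGTCA, any base, AGGTCA), and no match overlapped another. CAAAACA stood 121 bases before the Igfbp1 start and 67 bases before the Igf1 start, and it occurred in 5.46% of the 33469 RefSeq promoter windows of the same length. The Igfbp1 window also held a reverse-strand match to the HNF1 motif, 73 bases before the start, which was found in 0.323% of all windows. The Igfals window held none of the motifs. TTCNNNGAA, GTAAACA and the direct repeat were in none of these windows and in 7.67%, 3.21% and 0.0508% of all of them. The windows of Ghr and Igfbp3 held no match to any of the motifs either. Igfbp1 and Igfbp3 are neighbours in the assembly, with 0 annotated genes between them.

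The deposited values are linear intensities, which can lie below 0. On each array a detection level was taken as the 95th percentile of the absolute values of its negative intensities. Members were above it in 15 of 32 values from microdissected liver (46.9%), 13 of 24 from LCM-reference-time sections (54.2%), 18 of 24 from dehydrated sections (75%), 103 of 160 from stained sections (64.4%) and 168 of 176 from entire sections (95.5%). Over all non-control probe sets the median share per array was also lower in several preparations. It was 19.9% (microdissected), 20.4% (LCM reference time), 31.0% (dehydrated), 27.2% (stained) and 31.6% (entire). The GAPDH ratio, that of its 3' over its 5' probe set and a measure of how complete the transcripts are toward their 5' end, had medians of 7.71 (microdissected), 4.70 (LCM reference time), 11.8 (dehydrated), 8.45 (stained) and 1.54 (entire). On 3 of the 22 arrays of entire sections it was above 4, at 6.25 in a control, 5.07 at 0.29% CA and 6.49 at 0.54% CA. Within entire sections its medians were 1.36 in controls, 1.35 at 0.29% CA and 2.16 at 0.54%. Mean intensity per array lay between 110 and 208.

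In entire sections CA went with higher Igfbp1 and with lower Igfals, Igf1 and Igfbp3 probe sets. Igfbp1 was 2.99-fold higher at 0.29% CA and 4.59-fold higher at 0.54% than in controls. The Igfals _g_at probe set was 1.56-fold lower at 0.29% and 2.59-fold lower at 0.54%, and the step between the doses passed the test as well. The Igf1 _g_at probe set was lower at both doses, Igfbp3 at 0.29%, and neither Ghr probe set passed the test at either dose. Fold changes are differences of log2 intensity after quantile normalization, tested with limma, and a probe set was called at a Benjamini-Hochberg adjusted p under 0.05 over 7804 tested probe sets. At 0.29% CA 1 of the 8 members was called higher and 3 lower, where 11.1% of all tested probe sets were called (5.51% higher and 5.63% lower). At 0.54% CA 1 member was called higher and 3 lower, where 15.8% were called (8.12% higher and 7.71% lower). The members' median log2 fold change was -0.38 at 0.29% and -0.50 at 0.54%, beside -0.01 over all tested probe sets at either dose. Both doses were set against the same control arrays.

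**Figure D1:**
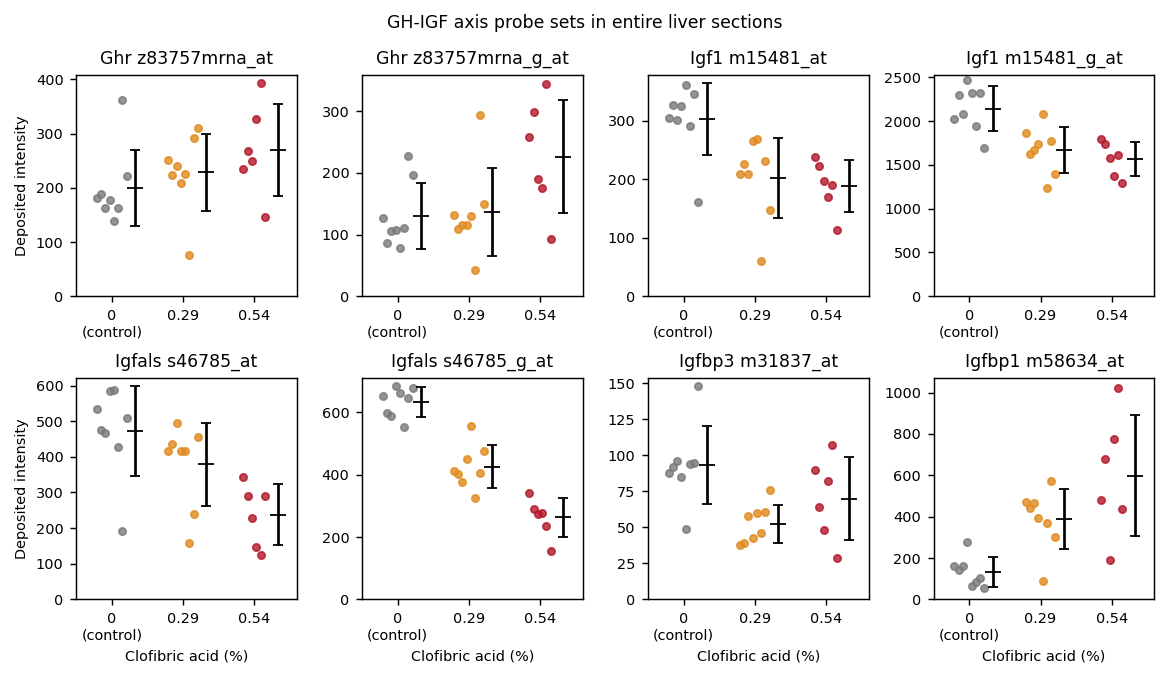
Deposited intensity (linear axes from 0) of the 8 probe sets in entire sections by CA dose in percent. Each point is an array, and the bar beside each group shows its mean and SD (8 arrays in controls, 8 at 0.29% and 6 at 0.54%). The Igfals _g_at values step down with dose, with medians of 649.5, 410 and 277, while the Igfbp1 medians step up, at 123, 419 and 580.

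Ghr, the receptor, gave _at intensities from 139 to 362 in control sections, with a median of 179.5. At 0.29% CA they ran from 76 to 311 with a median of 233.5, and at 0.54% from 146 to 393 with a median of 258.5. The groups overlapped widely, with control replicate 7 far above the other controls and replicate 6 far below the others at 0.29%. For z83757mrna_at the log2 fold change was 0.14 ± 0.23 at 0.29% (SE, limma adjusted p = 0.799) and 0.39 ± 0.25 at 0.54% (limma adjusted p = 0.338).

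The other Ghr probe set, z83757mrna_g_at, ranged from 78 to 227 in controls (median 109.5), from 42 to 294 at 0.29% CA (median 123) and from 93 to 344 at 0.54% (median 224). At 0.54% 3 of the 6 arrays were above every control. Its log2 fold change was -0.03 ± 0.28 at 0.29% (limma adjusted p = 0.979) and 0.71 ± 0.31 at 0.54% (limma adjusted p = 0.132). With array weights the 0.54% difference was 0.99 and passed the test (limma adjusted p = 0.00172). The highest value of this probe set in each dose group, 227, 294 and 344, came from the array whose GAPDH ratio was above 4. Without those 3 arrays the log2 fold change at 0.54% was 0.69 (limma adjusted p = 0.105).

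Igf1, the growth factor itself, had m15481_g_at intensities of 1695 to 2470 in control sections (median 2192), 1231 to 2084 at 0.29% CA (median 1702.5) and 1299 to 1799 at 0.54% (median 1593.5). At each CA dose 4 arrays lay below every control, and the rest overlapped the lower controls. Its log2 fold change was -0.37 ± 0.12 at 0.29% (1.30-fold lower, limma adjusted p = 0.0401) and -0.44 ± 0.13 at 0.54% (1.35-fold lower, limma adjusted p = 0.0186). The call at 0.29% was lost in 11 of the 16 fits that left out an array, with adjusted p up to 0.0846, and without the 3 arrays of high GAPDH ratio (limma adjusted p = 0.0544). The call at 0.54% was lost without replicate 4 of that dose (limma adjusted p = 0.0525).

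The second Igf1 probe set, m15481_at, had medians of 315.5 in controls, 218.5 at 0.29% CA and 193.5 at 0.54%. Only 2 of 8 arrays at 0.29% and 1 of 6 at 0.54% lay below every control, because control replicate 8 was low at 162 where the next control had 292. The log2 fold changes were -0.65 ± 0.22 (limma adjusted p = 0.0662) and -0.70 ± 0.24 (limma adjusted p = 0.0539), neither past the threshold. Without control replicate 8 both doses of m15481_at passed (log2 -0.77 and -0.82, limma adjusted p = 0.0201 and 0.0159). Both also passed with array weights (limma adjusted p = 0.0222 and 0.00777), with the replicate block (0.0257 and 0.0135) and with a filter at the 75th percentile of intensities (0.0270 and 0.0225), and 0.54% alone with a floor of 20 (0.0448) and with a trended robust prior (0.0444).

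Igfals, the gene of the acid-labile subunit, gave s46785_g_at intensities from 554 to 685 in controls (median 649.5), from 326 to 557 at 0.29% CA (median 410) and from 155 to 343 at 0.54% (median 277). All 6 arrays at 0.54% and 7 of the 8 at 0.29% were below every control, and the remaining array, at 557, was just above the lowest control. On the log2 scale the fold change was -0.64 ± 0.10 at 0.29% (limma adjusted p = 5.71e-05) and -1.37 ± 0.10 at 0.54% (limma adjusted p = 1.90e-09). After normalization this was the single member whose CA values did not overlap the controls at 0.29% and also at 0.54%, where 4.14% and 6.62% of all tested probe sets did not overlap.

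The 0.54% arrays were also lower than the 0.29% arrays for this probe set, by 1.66-fold (log2 -0.73 ± 0.10, limma adjusted p = 0.000415). After normalization the 2 dose groups did not overlap, as for 0.628% of tested probe sets. It was the single member called between the doses, where 0.935% of all tested probe sets were called. The difference between doses missed the threshold on the deposited scale centred on array medians (limma adjusted p = 0.0912) and with all 15 groups in the fit (limma adjusted p = 0.0708).

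The partner probe set s46785_at had medians of 491.5 in controls, 417 at 0.29% CA and 259 at 0.54%. Its range in controls, 191 to 587, covered most of the 159 to 494 at 0.29% and overlapped the 126 to 343 at 0.54%. The log2 fold change was -0.38 ± 0.28 at 0.29% (limma adjusted p = 0.507) and -1.04 ± 0.30 at 0.54% (2.06-fold lower, limma adjusted p = 0.0213). The arrays with a GAPDH ratio above 4 held the lowest control value (191), the second lowest at 0.29% (240) and the lowest at 0.54% (126). Without them the change at 0.54% was -1.05 ± 0.24 (limma adjusted p = 0.00541). The call at 0.54% was lost without replicate 4 (limma adjusted p = 0.0560) or replicate 5 (limma adjusted p = 0.0692) of that dose.

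Igfbp3, the binding protein of the ternary complex, was near the detection level, with 7 of 8 control arrays, 4 of 8 at 0.29% CA and 5 of 6 at 0.54% above it. Its intensity ran from 49 to 148 in controls (median 93), from 38 to 76 at 0.29% (median 52) and from 29 to 107 at 0.54% (median 73). At 0.29% 4 of 8 arrays lay below every control, and at 0.54% 2 of 6 did. For m31837_at the log2 fold change was -0.84 ± 0.23 at 0.29% (1.80-fold lower, limma adjusted p = 0.0204) and -0.56 ± 0.25 at 0.54% (limma adjusted p = 0.150). The 2 doses were not shown to differ (log2 0.28 ± 0.25, limma adjusted p = 0.763). On the deposited scale the 0.29% difference missed the threshold (limma adjusted p = 0.0514).

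Igfbp1, the binding protein that insulin holds down, ran from 53 to 279 in controls (median 123), from 90 to 574 at 0.29% CA (median 419) and from 190 to 1023 at 0.54% (median 580). At 0.29% 7 of 8 arrays and at 0.54% 5 of 6 arrays were above the highest control. A single array at each dose stayed within the control range, replicate 5 at 0.29% with 90 and replicate 3 at 0.54% with 190. For m58634_at the log2 fold change was 1.58 ± 0.41 at 0.29% (limma adjusted p = 0.0130) and 2.20 ± 0.44 at 0.54% (limma adjusted p = 0.00122). The difference between the doses, 0.62 ± 0.44, missed the threshold (limma adjusted p = 0.680). Without the 3 arrays of high GAPDH ratio the CA differences were 1.46 and 1.98.

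Of the calls in entire sections, those of Igf1 _g_at, Igfbp3 and Igfals _at were lost with all 15 groups in the fit. The limma adjusted p was then 0.246 at 0.29% and 0.139 at 0.54% for Igf1 m15481_g_at, 0.0559 at 0.29% for Igfbp3 and 0.248 at 0.54% for Igfals s46785_at. On the deposited scale Igf1 m15481_g_at was not called either (limma adjusted p = 0.151 at 0.29% and 0.0652 at 0.54%).

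In stained sections the Igfbp3 probe set was lower at 0.54% CA, and it was the only one of the 8 members to pass the test there. Its medians were 81.5 in controls, 52 at 0.29% and 36 at 0.54%, and it was above the detection level on 7 of 8, 3 of 7 and 1 of 5 of these arrays, so the size of the change rests largely on values near background. Igfbp1 was again high on most CA arrays but did not pass in the main fit. The GAPDH ratio moved with dose here, with medians of 10.2 in controls, 7.32 at 0.29% and 4.47 at 0.54%, and the stained values below are given with it as a covariate where a call or a sign changed. At 0.54% 1 of 8 members was called, where 6.27% of the 7913 tested probe sets were called (3.15% lower). At 0.29% 0 of 8 members were called by limma, where 3.65% were called, and 2 had an unadjusted p under 0.05. The members' median log2 fold change was -0.05 at 0.29% and 0.08 at 0.54%, beside -0.01 and -0.05 over all tested probe sets.

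Igfbp3 intensities in stained sections ran from 34 to 112 in controls, from 16 to 70 at 0.29% CA, and were 39, 36, 30, 90 and 25 at 0.54%. The 0.54% values lay low but for replicate 4, and the groups overlapped. The log2 fold change was -0.96 ± 0.28 at 0.29% (limma adjusted p = 0.0676) and -1.23 ± 0.31 at 0.54% (limma adjusted p = 0.0181). The 0.54% call was lost with the GAPDH ratio as a covariate (limma adjusted p = 0.0774), on the deposited scale (limma adjusted p = 0.0559), and without replicate 2, 3 or 5 of that dose (limma adjusted p = 0.0508, 0.0581 and 0.0684). Without the 3 stained arrays whose 5S rRNA intensity was above 200, the 0.29% difference passed as well (log2 -0.99, limma adjusted p = 0.0223).

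Igfbp1 in stained sections ran from 48 to 276 in controls (median 82) and from 68 to 1144 at 0.29% CA (median 584). At 0.54% its values were 201, 700, 258, 790 and 730. At 0.29% 5 of 7 arrays and at 0.54% 3 of 5 were above every control, and the others lay inside the control range. The log2 fold change was 1.80 ± 0.56 at 0.29% (3.48-fold, limma adjusted p = 0.0982) and 1.80 ± 0.62 at 0.54% (3.49-fold, limma adjusted p = 0.101). It passed in 3 of 10 other settings at 0.29% (lowest limma adjusted p = 0.0227) and in 2 of 10 at 0.54% (lowest 0.0288). When arrays were left out in turn, it passed in 2 of 15 fits at 0.29% and 0 of 13 at 0.54%.

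The Igfals _g_at probe set, which was above the detection level on all 20 stained arrays, ran from 322 to 757 in controls (median 649), from 278 to 598 at 0.29% CA (median 374), and was 428, 353, 410, 307 and 339 at 0.54%. Of the 8 controls 3 were low, at 322, 337 and 382, and the other 5 were at 638 or above, so the CA arrays overlapped them. Its log2 fold change was -0.51 ± 0.25 at 0.29% (limma adjusted p = 0.421) and -0.83 ± 0.28 at 0.54% (limma adjusted p = 0.0859). Igf1 _g_at, also detected on every stained array, had medians of 1486 in controls, 1290 at 0.29% and 1181 at 0.54%, with log2 fold changes of -0.20 ± 0.22 (limma adjusted p = 0.796) and -0.51 ± 0.25 (limma adjusted p = 0.278).

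The other 4 probe sets, like Igfbp3, were not above the detection level on part of the stained arrays. Igf1 _at (m15481_at), above it on 11 of 20, had stained medians of 58.5, 59 and 53 at 0, 0.29 and 0.54% CA and did not pass at either dose. Igfals _at (s46785_at), above it on 15 of 20, ranged from 22 to 372 in stained controls alone, and its log2 fold change at 0.54%, 0.67 ± 0.68 (limma adjusted p = 0.673), had the opposite sign to that in entire sections. Adding the GAPDH ratio to the model gave -0.19 (limma adjusted p = 0.944). For Ghr _at (z83757mrna_at) 1 of 8 controls, 3 of 7 arrays at 0.29% and 2 of 5 at 0.54% were above the detection level, and its log2 fold changes of 0.30 ± 0.49 and 0.86 ± 0.54 did not pass (limma adjusted p = 0.873 and 0.424). For Ghr _g_at no stained control was above the detection level, so no fold is given.

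**Figure D2:**
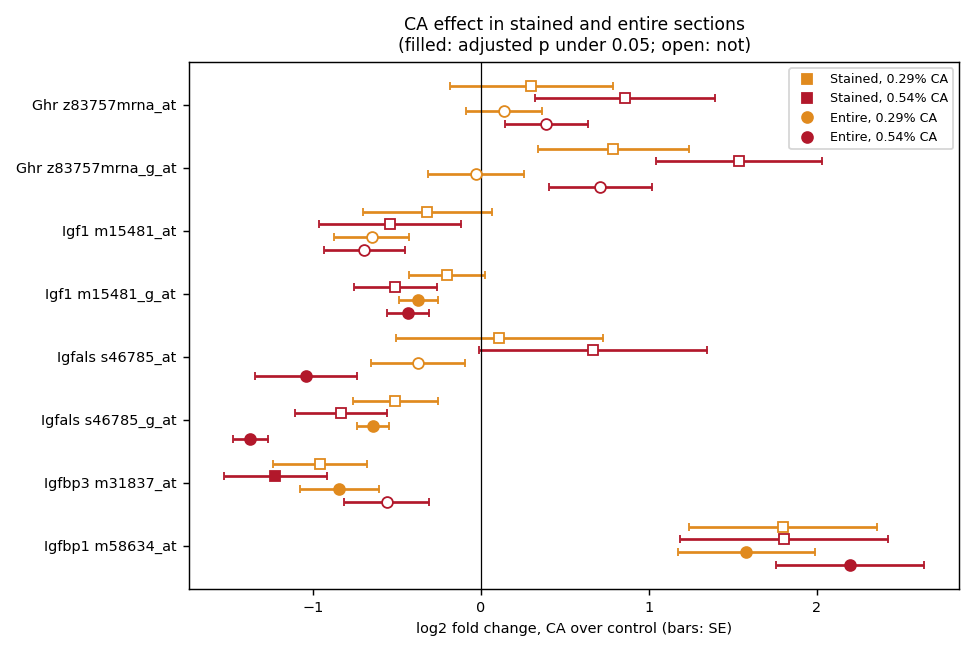
Log2 fold change of CA over control (horizontal axis, bars are the SE) for the 8 probe sets, with stained sections as squares and entire sections as circles. Filled symbols passed an adjusted p of 0.05: Igfbp1, both Igfals probe sets, Igf1 _g_at and Igfbp3 in entire sections, and Igfbp3 in stained sections. The stained values of Ghr _g_at rest on controls of which none was above the detection level.

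Whether CA acted differently on the members in stained and in entire sections was tested with an interaction term over 8191 probe sets. At 0.29% CA 0 of 8 members were called by limma, where 0.0855% of all tested probe sets were called, and none had an unadjusted p under 0.05. At 0.54% 0 of 8 were called, where 0.134% were, and 1 had an unadjusted p under 0.05. That member was Igfals s46785_at, with a difference in log2 fold change of 1.71 ± 0.74 (limma adjusted p = 0.450). A direct contrast of 0.54% with 0.29% CA in stained sections called 0 of 8 members, with none under an unadjusted p of 0.05, where 0.0632% of probe sets were called.

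Among controls, stained sections gave much lower Ghr signal than entire sections, and lower signal for the _at probe sets of Igf1 and Igfals, while the _g_at probe sets of the same 2 genes, Igfbp3 and Igfbp1 did not pass the test. In all, 4 of 8 members were called, all lower, where 30.1% of 8191 tested probe sets were called and 13.7% were lower. The members' median log2 difference was -0.99, beside 0.09 over all tested probe sets. The GAPDH ratio had a median of 10.2 in stained controls and 1.36 in entire controls. It ran from 4.66 to 18.9 in stained controls, while in entire controls the highest ratio was 6.25 and the next 1.92. With so little overlap, a fit with this ratio as a covariate cannot cleanly separate it from the preparation.

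The Ghr z83757mrna_at intensities were between 2 and 42 in stained controls (median 28.5), against 139 to 362 in entire controls (median 179.5). The groups did not overlap, as for 6.59% of tested probe sets, and stained controls were lower (limma adjusted p = 6.65e-07). The fitted log2 difference of -2.69 ± 0.37 rests on stained values of which 1 of 8 was above the detection level, so its size is uncertain. For Ghr z83757mrna_g_at the stained controls lay between -2 and 16, none of them above the detection level, against 78 to 227 in entire controls, all 8 above it. Stained controls were therefore at least 1.71-fold lower (limma adjusted p = 1.11e-09), a bound set by the detection level of each stained array. With the GAPDH ratio as a covariate, and under the limit given above, both Ghr differences passed (limma adjusted p = 0.00353 for _at and 0.000101 for _g_at). The part of RNA quality in them was not tested.

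Igf1 m15481_at ran from 30 to 190 in stained controls (median 58.5), against 162 to 362 in entire controls (median 315.5), a log2 difference of -1.57 ± 0.31 (2.97-fold lower, limma adjusted p = 0.000134). Igf1 m15481_g_at, with 765 to 1899 in stained controls (median 1486), against 1695 to 2470 in entire controls (median 2192), differed by -0.40 ± 0.17 and did not pass (limma adjusted p = 0.0673). Both probe sets overlapped between the preparations. With the GAPDH ratio as a covariate the m15481_at difference was -1.04 (limma adjusted p = 0.207).

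Igfals s46785_at ran from 22 to 372 in stained controls (median 75), against 191 to 587 in entire controls (median 491.5), a log2 difference of -1.88 ± 0.47 (3.68-fold lower, limma adjusted p = 0.00211). Its partner s46785_g_at had nearly the same median in both, 649 in stained controls and 649.5 in entire controls, and a log2 difference of 0.16 ± 0.18 (limma adjusted p = 0.544). With the GAPDH ratio as a covariate the s46785_at difference was 0.14 (limma adjusted p = 0.9501). Igfbp3 differed by 0.23 ± 0.25 (limma adjusted p = 0.532) and Igfbp1 by 0.32 ± 0.49 (limma adjusted p = 0.678).

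**Figure D3:**
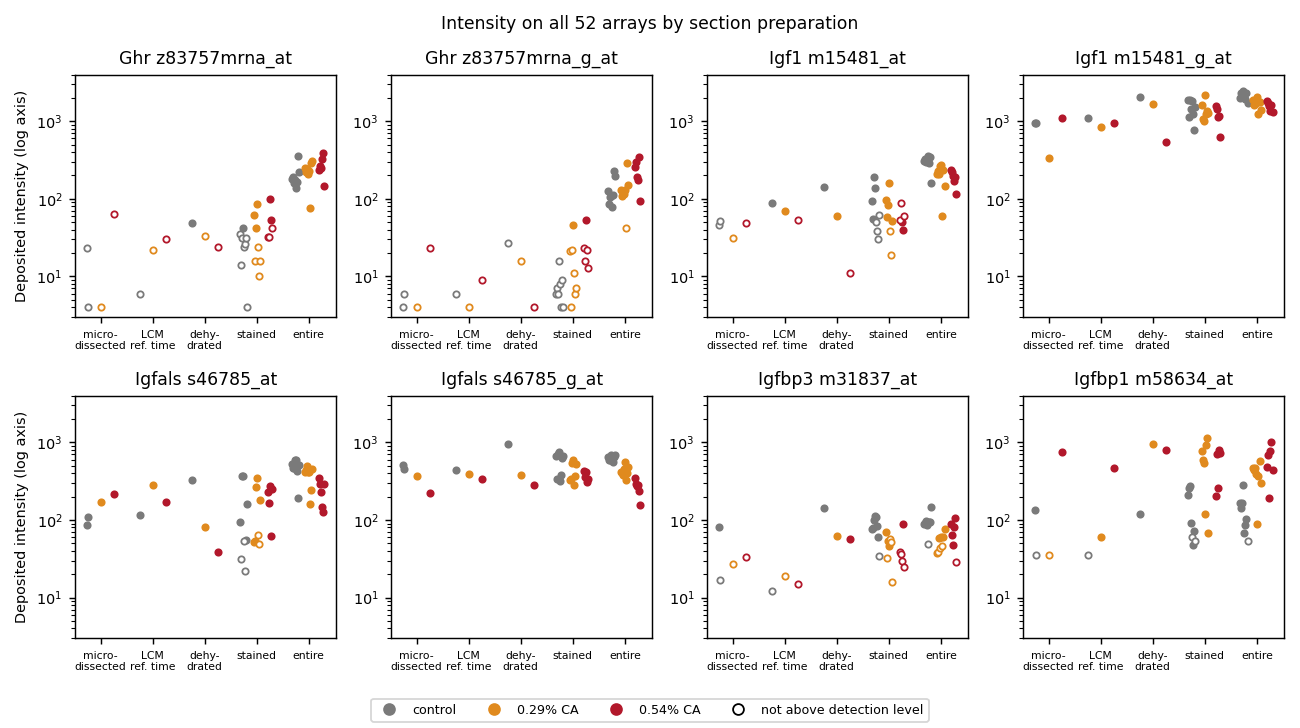
Deposited intensity (log axis, values below 4 drawn at 4) of the 8 probe sets on all 52 arrays, by section preparation, with dose by colour. Open symbols were not above the detection level of their array. Ghr is mostly open outside entire sections, where 22 of 22 _at values and 21 of 22 _g_at values were above the level, while the _g_at probe sets of Igf1 and Igfals are filled in every preparation.

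The unequal difference within the Igf1 and Igfals pairs was followed as the log2 ratio of the _at to the _g_at probe set on each array, a measure chosen after the values had been seen. The p-values below do not allow for that choice. Those for controls come from the same arrays as the contrasts above and add no separate evidence. For Igfals the ratio averaged -2.54 ± 1.12 in stained controls and -0.50 ± 0.50 in entire controls (SD, n = 8 each), a difference of -2.04 (two-sided exact permutation p = 0.00124, adjusted 0.00249 over 6 such tests). At 0.29% CA the Igfals difference was -1.69 (exact permutation p = 0.000932, adjusted 0.00249) and at 0.54% it was -0.88 (exact permutation p = 0.0606, adjusted 0.0606). For Igf1 the ratio averaged -4.21 ± 0.67 in stained controls and -3.04 ± 0.22 in entire controls (SD, n = 8 each), a difference of -1.17 (exact permutation p = 0.000932, adjusted 0.00249). The Igf1 differences were -1.01 at 0.29% CA (exact permutation p = 0.00684, adjusted 0.0103) and -0.94 at 0.54% (exact permutation p = 0.0130, adjusted 0.0156). Part of the _at values behind these ratios were not above the detection level: m15481_at was above it on 4 of 8 stained controls, 5 of 7 arrays at 0.29% CA and 2 of 5 at 0.54%, and s46785_at on 5 of 8, 5 of 7 and 5 of 5. The sizes of the ratios are uncertain to that extent. The GAPDH ratio of stained sections also fell with dose, with medians of 10.2 in controls, 7.32 at 0.29% and 4.47 at 0.54%. In entire sections its medians were 1.36, 1.35 and 2.16. The part of RNA quality in the pair differences, or in their change with dose, was not tested. In each of the 6 comparisons some stained arrays lay within the range of entire sections. The Igfals comparison at 0.54% was past the threshold before adjustment when the 3 entire arrays of high GAPDH ratio and the 3 stained arrays of high 5S intensity, the arrays in doubt, were left out (difference -1.18, exact permutation p = 0.0317), and also without replicate 4 or replicate 5 of the entire 0.54% group (exact permutation p = 0.0397 and 0.0317). No source used here gives where the probes of each set lie along the transcript.

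**Figure D4:**
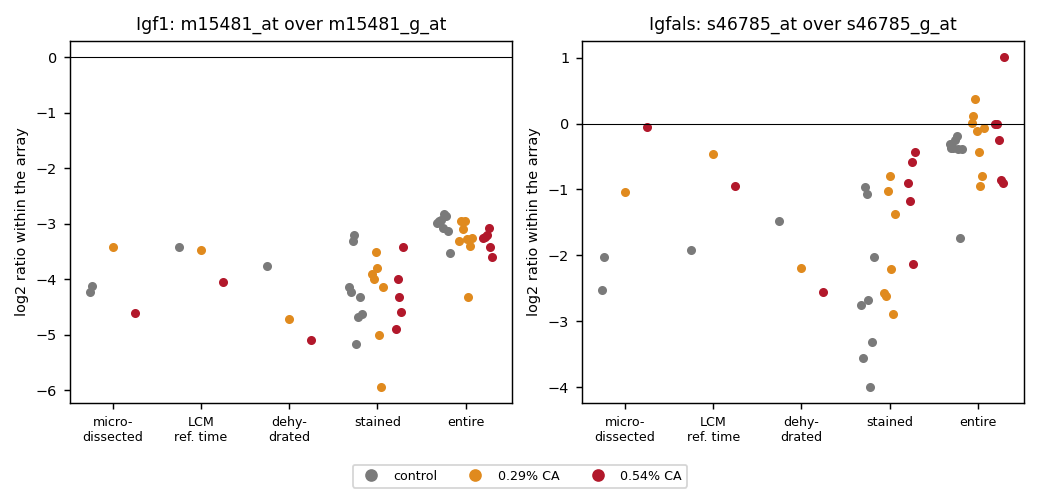
Log2 ratio of the _at to the _g_at probe set within each array (vertical axis), for Igf1 (left) and Igfals (right), by section preparation and with dose by colour. Each point is an array. Entire controls average -3.04 for Igf1 and -0.50 for Igfals, and stained sections spread to lower ratios in both panels.

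The dehydrated and LCM-reference-time sections had 1 array per dose, so their values carry no replicate check. At 0, 0.29 and 0.54% CA the GAPDH ratio was 6.36, 11.8 and 14.3 after dehydration. It was 7.28, 3.12 and 4.70 after the LCM reference time. Dose and RNA quality cannot be told apart in these single arrays, and the part of RNA quality was not tested. Igfbp1 had intensities of 35, 60 and 463 at 0, 0.29 and 0.54% CA after the LCM reference time, and of 118, 943 and 793 after dehydration. The single control array was the lowest for Igfbp1 in both preparations. Igfals s46785_g_at had 439, 394 and 341 after the LCM reference time and 944, 379 and 280 after dehydration, and Igf1 m15481_g_at had 1095, 847 and 962 in the LCM-reference-time sections and 2084, 1662 and 547 in the dehydrated ones. For these _g_at probe sets of Igfals and Igf1 the control array was the highest in both. For Igfals s46785_at the control array was the highest after dehydration, with 329, 82 and 39 in order of dose. After the LCM reference time it was the lowest on the deposited scale, with 117, 279 and 169. After normalization it lay between the CA arrays there, with log2 values of 8.13, 8.86 and 7.74. Igfbp3 had 12, 19 and 15 after the LCM reference time, none above the detection level, and 143, 62 and 57, all above it, after dehydration. Of the 12 Ghr values in these 2 preparations, 1 was above the detection level, the dehydrated control of z83757mrna_at at 49.

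In microdissected liver the contrast of CA (mean of both doses) with control called 0 of 8 members by limma, where 12.8% of 8318 tested probe sets were called, and 1 member had an unadjusted p under 0.05. Igfbp1 had 135 and 35 in the 2 controls, 35 at 0.29% CA and 743 at 0.54%, so that a single array stood high. Igfals s46785_g_at had 518 and 459 in the controls, 374 at 0.29% and 222 at 0.54%. Both of its CA arrays were under both controls on the deposited scale, though not after normalization. The single member whose normalized CA values did not overlap the controls was Igfals s46785_at, with 86 and 110 in the controls, 168 at 0.29% and 216 at 0.54%, where 29.7% of tested probe sets did not overlap. Igf1 m15481_g_at had 962 and 953 in the controls, 339 at 0.29% and 1117 at 0.54%. With 1 array at each CA dose the spread was pooled over all 15 groups, and the lone arrays were assumed to vary like the others. The GAPDH ratio was 14.3 and 9.22 in the microdissected controls, 6.20 at 0.29% and 3.02 at 0.54%. Dose and RNA quality cannot be told apart in these arrays, and the part of RNA quality was not tested.

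Microdissected liver against stained sections, averaged over the 3 doses, also gave 0 of 8 members called by limma, where 12.3% of tested probe sets were called, and 1 had an unadjusted p under 0.05. That was Ghr z83757mrna_at (limma adjusted p = 0.0880). Its 4 microdissected values were 23, 0, -4 and 64, none above the detection level, beside 2 to 101 on the 20 stained arrays, of which 6 were above it, so no fold is given.

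The probe sets most like the members were sought among 2774 others by the root mean square difference of their mean-centred log2 group means over the 6 entire and stained groups. The nearest to Igfbp1 was k01721mrna_s_at, at 0.157 log2 units, where the median candidate was 0.956 away. The nearest to Igfals s46785_g_at was m13100cds#2_s_at at 0.0833, and the nearest to Igf1 m15481_g_at was l27487_at at 0.0525. Within 0.2 log2 units lay 3 candidates for Igfbp1, 24 for Igfals and 152 for Igf1. No source used here pairs these IDs with gene names.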

How the data were processed

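Total RNA from rat liver sections was measured on one-colour oligonucleotide arrays, 1 array per sample. The deposited values are linear intensities, rounded to whole numbers, 1 for each probe set on each array, and 24.2% of them lay below 0. No source used here gives the authors' software, scaling or presence calls. Precision is limited by the number of arrays and by how far a signal stands above background.

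Intensities under 4 (the 10th percentile of positive values) were raised to 4, then quantile normalization was applied to the log2 values of all 52 arrays, because the 2% trimmed means varied by over 5%. Groups, taken from the labels, were tested against each other in R 4.3.3 with limma 3.58.1 (lmFit, eBayes, two-sided). Adjustment ran over the non-control probe sets above the floor on at least 1 array. Entire groups were fitted together, as were stained groups. Contrasts between these preparations used both, and microdissected contrasts used all 15 groups. The procedure was tested on simulated data. Probe set ratios were compared by exact permutation tests (SciPy 1.17.1, Python 3.11.15). Plots were drawn with matplotlib 3.10.9. The alternatives tried were another scaling, floor, filter, variance prior and set of groups in the fit, array weights, the GAPDH ratio as a covariate, the replicate number as a block, and leaving out arrays in doubt or each replicate.

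The members were chosen with earlier results of these data known, and all of them are named. The table gives no gene names: those of the members came with the choice of accessions, and 0 of 8740 accessions matched the RefSeq gene table. Other genes of the pathway, cell type markers and the labelled tissue could therefore not be checked.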

Additional observations from a re-analysis of the deposited data

Results flagged for a closer look

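Of 48 combinations of a member probe set with a group of 4 to 10 arrays, 8 held a value far from the others by Dixon's test. For independent, normally distributed values chance alone does this in about 1 in 20. The combinations share arrays and the intensities are linear, so that rate is only a rough guide. Ghr z83757mrna_at had 362 in entire control replicate 7, where the next value was 222, and 76 in entire 0.29% CA replicate 6, where the next was 209. Ghr z83757mrna_g_at had 294 in entire 0.29% CA replicate 7 (next 150), 46 in stained 0.29% CA replicate 4 (next 22) and 54 in stained 0.54% CA replicate 3 (next 23). Igf1 m15481_at had 162 in entire control replicate 8 (next 292). Igfals s46785_at had 191 in entire control replicate 7 (next 427). Igfbp3 m31837_at had 90 in stained 0.54% CA replicate 4 (next 39). Replicate 7 of the entire controls and of the entire 0.29% group were among the 3 arrays of entire sections where the 3'/5' ratio of GAPDH exceeded 4. The part of RNA quality in these values was not tested.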

How the results depend on the processing

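The calls of higher Igfbp1 and lower Igfals s46785_g_at against control in entire sections, at both doses, held in all 10 other settings and in every fit that left out an array. The number of members called for 0.29% CA in entire sections, 4, was 2 on the deposited scale centred on array medians and 2 with all 15 groups in the fit. For 0.54% CA it was 2 in place of 4 with all 15 groups, 3 on the deposited scale, 6 with array weights and 6 with the replicate block, and 2 to 5 when arrays were left out in turn, with 2 without replicate 4 of the 0.54% group. Between the CA doses, 1 call became 0 on the deposited scale, 0 with all 15 groups, 3 with array weights and 2 with the replicate block. In stained sections at 0.29%, 0 calls became 1 with a floor of 20, 1 with a filter at the 75th percentile of intensities, 2 with all 15 groups, 2 with array weights, 1 with the replicate block and 1 without the arrays in doubt, and 0 to 1 when arrays were left out. At 0.54%, 1 call became 0 on the deposited scale, 2 with the 75th percentile filter, 4 with all 15 groups and 0 with the GAPDH covariate, and 0 to 2 when arrays were left out. Stained against entire controls gave 2 calls in place of 4 with the GAPDH covariate. Microdissected against stained gave 1 call in place of 0 on the deposited scale, with array weights and without the arrays in doubt, and 0 to 1 when arrays were left out. The causes of these changes were not tested.

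Of 1247 alternative values for single probe sets, 24 changed sign, of which 1 was called in the main result: Igfals s46785_at in stained against entire controls, 0.14 with the GAPDH covariate. With that covariate the sign also turned for Igfbp3 (-0.076) and Igfbp1 (-0.37) in the same contrast, for Igfals s46785_at in stained sections (-0.39 at 0.29% and -0.19 at 0.54%) and for Igf1 m15481_at between the doses in entire sections (0.0053). Ghr z83757mrna_g_at at 0.29% in entire sections was 0.13 with array weights. In stained sections at 0.29%, Ghr z83757mrna_at was -0.076 with the replicate block and -0.038 without the arrays in doubt, and Igfals s46785_at was -0.0033 without them. When arrays were left out in turn, values that changed sign ranged from -0.20 to 0.16 for Ghr z83757mrna_g_at at 0.29% in entire sections, from -0.25 to 0.035 for Igf1 m15481_at between the doses, and, in stained sections at 0.29%, from -0.076 to 0.51 for Ghr z83757mrna_at and from -0.17 to 0.37 for Igfals s46785_at.

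Replicate numbers were not taken to pair the samples, since same-numbered deviations did not correlate above 0.1 in every pair. Over 57 such pairs the correlation ran from -0.17 to 0.50, and in 19 it was the best with the same number. How many best matches chance would give was not computed. A real but noisy pairing could miss this rule, so the rule does not exclude pairing. The hint was clearest between stained 0.29% CA and stained controls, with 4 of 7 best and replicate 7 at -0.17. With the replicate block, Ghr z83757mrna_g_at at 0.54% in entire sections was 0.96 (limma adjusted p = 0.00541). A detection level at the 99th percentile left 253 of 416 member values above it, and a fixed 20 left 379, beside 317. Signal near the detection level limits Igfbp3, and both Ghr probe sets outside entire sections, to uncertain sizes or to bounds.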
